A study of Mus musculus with 10 samples.

Results

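The 120 genes described here lie next to Nfe2l2 on mouse chromosome 2. Nfe2l2 encodes Nrf2 and is the gene deleted in the Nrf2-null mice. They are the genes whose starts lie nearest to the Nfe2l2 start in GENCODE M21 and that had at least 100 counts summed over the 10 libraries. Start here means the lower coordinate of a gene, whatever its strand, so for a gene on the minus strand it is the 3′ end. All distances and ranks use this coordinate. Ranking by transcription start gave the same 120 members, but distances and ranks among them can differ and are not given. Nfe2l2 itself and symbols of some ribosomal, proteasomal, ubiquitin-conjugating and mitochondrial families were left out. The span holds 806 genes of the count table, of which 677 were under the count minimum and 8 were left out by symbol. Olfactory receptor genes made up 287 of the 677. Expressed levels were not otherwise used in the choice, and all 120 members passed the filter on low counts that the test requires.

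RNA sequencing covered mouse erythroblasts, the nucleated precursors of red blood cells, isolated with a bead kit from spleens 11 days after 5-FU, a drug that kills dividing blood precursors. The groups were Nrf2-null (Nrf2-/-, n = 3), double-null (Nrf2/miR-144/451-/-, n = 3), miR-144/451-null (miR-144/451-/-, n = 2), which lacks a pair of erythroid microRNAs, and wild type (n = 2). The labels give C57BL/6 as the strain of each mouse and do not give its age. No source used here says how either allele was made, from which strain of stem cells, or with how many backcrosses. The labels do not say whether libraries of a group came from separate mice, so the p-values here rest on the spread between libraries, which may be technical. The double-null libraries were of both sexes by Xist and Y-linked counts, so they did not all come from the same mouse.

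Nrf2 is a transcription factor that, with small Maf proteins, binds antioxidant response elements and switches on detoxifying and antioxidant genes. Genes close to a deleted locus are inherited together with it unless recombination separates them. For this reason the neighbours of a targeted gene are commonly examined alongside its known targets. The region around Nfe2l2 holds the Hoxd cluster, several integrin genes, splicing and translation factors and, farther out, genes of myeloid cells such as Spi1. The question addressed here is whether these neighbours differ between libraries with and without the Nrf2 deletion.

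Library totals ranged from 13087827 to 15131036 counts, and the members took 0.718% to 0.886% of them. By Xist counts, double-null replicate 3 and both wild type libraries were female, and the other 7 were male. All Nrf2-null libraries were thus male and both wild type libraries female, so a term for sex in that comparison rests on the 1 female library among the double-null. Values with this term are given below for the members called for the Nrf2 deletion. Pir, a known Nrf2 target, was lower by 1.90 on the log2 scale in the libraries with the deletion (adjusted p = 0.000423, edgeR). The other targets checked did not pass. Averaged log2 differences were -1.58 for Srxn1, -0.62 for Nqo1, -0.53 for Txnrd1, -0.12 for Gclc and -0.02 for Gclm. Hmox1 went the other way, at 0.77 (adjusted p of these targets 0.0702 to 0.932, edgeR). The 10 erythroid markers were detected, and no marker of 7 cell type lists passed the threshold. Summed macrophage markers spanned 82.7 to 1095 CPM (counts scaled to equal library size) in libraries with the deletion and 136.5 to 255.8 CPM in those without. Summed B cell markers spanned 101.4 to 553.4 CPM with the deletion and 227.6 to 1006 CPM without it.

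Of the 120 members, 20 had over 20% of their 31-base words in the transcripts of another gene, and the median share was 1.88%. The share was 25% for Cwc22, 43% for Nup35 and 100% for Gm13694, and stretches of these transcripts are shown because these 3 genes are among the 4 that passed the test below. Cwc22 encodes a splicing factor that helps load the exon junction complex onto messenger RNA, and it lies in a segment whose copy number is known to vary among mice. Predicted genes Gm13691 and Gm13693 to Gm13698 lie 8.28 to 8.32 Mb distal to Nfe2l2, and 62.0% to 62.8% of the 31-base words of each occur in Cwc22. Over 2474 aligned bases, the transcript of Gm13694 was 98.42% identical to that of Cwc22, with 39 substitutions. Nup35 encodes a nucleoporin, a part of the nuclear pore. Its copy Gm4353 lies on chromosome 7, and its transcript was 99.61% identical over 1547 bases, with 6 substitutions. The stretches of 30 bases below come from the GENCODE M21 transcripts, 5′ to 3′, and capitals mark the bases that differ between a gene and its copy. Positions count from 1 at the 5′ end of the stretch, with the base of Cwc22 or Nup35 first: the first pair differs by T6C, C9T and T26C, and the other pair by A26G.
Cwc22: aacggTccCggaaatcgccatccccTgaca
Gm13694: aacggCccTggaaatcgccatccccCgaca
Nup35: ctcttgttggagctacaactcctgtAcctg
Gm4353: ctcttgttggagctacaactcctgtGcctg
No source used here says how reads that match both copies were counted, so the division of counts between a gene and its copies is uncertain.

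Of the 120 members, 4 passed the threshold when the 6 libraries with the Nrf2 deletion were compared with the 4 without it. The measure was the mean of the log2 differences of Nrf2-null from wild type and of double-null from miR-144/451-null. Cwc22, Gm13694 and Dync1i2 were higher with the deletion and Nup35 was lower. The threshold was an adjusted p under 0.05 in edgeR's quasi-likelihood test, two-sided, with Benjamini-Hochberg adjustment over all 14110 genes tested. Over all genes tested, 83 passed, which is 0.588% (0.369% higher and 0.22% lower), against 3.33% of the members. Gm13694 was at 2 counts or fewer in every library without the deletion, and a count chosen after seeing the data left out such genes, in either direction. It gave 3 of 119 members (2.52%) and 79 of 14096 genes (0.56%). On the rest of chromosome 2, 9 of 916 genes passed (0.983%), and on the other chromosomes 70 of 13073 (0.535%). The 9 include Gm13698, a Cwc22 copy 8.28 Mb distal that passed the filter on low counts only through the libraries with the deletion. With no adjustment, 25 members (20.8%) had p under 0.05, close to the 18.9% of all genes. The median log2 difference was -0.03 over the members and -0.02 over all genes, and the median absolute difference was 0.24 over the members and 0.23 over all genes. The members were chosen by position, and these shares are a description without a test of the list.

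**Figure D1:**
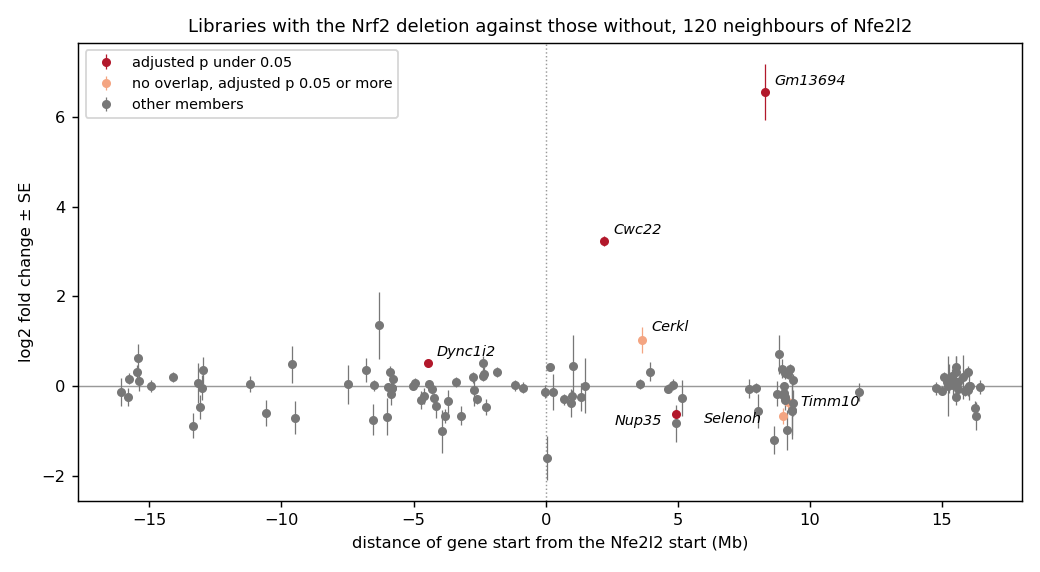
Log2 fold change (± SE) of each of the 120 members in the 6 libraries with the Nrf2 deletion against the 4 without it, by the distance of the gene start from the Nfe2l2 start in Mb (negative: proximal). Cwc22 at 3.23 and Gm13694 at 6.57 stand above the other members, which lie between -1.60 and 1.36.

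Cwc22, 2.21 Mb distal to Nfe2l2, was at 302.6, 329.5 and 314.8 normalised CPM (scaled with TMM factors) in Nrf2-null. It was at 235.4, 212.8 and 227.0 CPM in double-null, 32.8 and 28.3 CPM in miR-144/451-null, and 28.8 and 23.9 CPM in wild type. The lowest library with the deletion, at 212.8 CPM, stood far above the highest without it, at 32.8 CPM. Cwc22 was 11.9-fold higher in Nrf2-null than in wild type (log2 3.58, adjusted p = 1.39e-06, edgeR). It was 7.38-fold higher in double-null than in miR-144/451-null (log2 2.88, adjusted p = 9.69e-06, edgeR). The 2 comparisons share no library. The averaged log2 difference was 3.23 ± 0.11 (SE; adjusted p = 7.71e-08, edgeR), the smallest p of the genes tested in that comparison. The difference between the 2 comparisons, -0.70 ± 0.19 on the log2 scale, had an adjusted p of 0.888. Among male libraries alone, double-null against miR-144/451-null also passed the threshold (log2 2.89, adjusted p = 0.000648, edgeR). With a term for sex in the fit of all libraries, Nrf2-null against wild type gave log2 3.60 (adjusted p = 0.000308, edgeR).

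Gm13694, 8.303 Mb distal and one of the Cwc22 copies, had 34, 41 and 36 counts in Nrf2-null and 30, 34 and 22 counts in double-null. It had 0 and 2 counts in miR-144/451-null and 0 counts in both wild type libraries. All 6 libraries with the deletion thus held counts of a gene that was at or near 0 in the other 4. With a floor of 3 counts a library, it was at least 12.9-fold higher in Nrf2-null than in wild type. Its level in double-null was 32.7 times that in miR-144/451-null, with an exact 95% interval of 8.77 to 274 from 86 against 2 counts that covers counting error only. Gm13694 passed the filter on low counts only through the libraries with the deletion, so its p-values are given as a description and support nothing. The adjusted p was 0.00116 in the averaged test, 0.00854 in Nrf2-null against wild type and 0.072 for the double-null against miR-144/451-null (edgeR). The first of these single comparisons no longer passed without either wild type library (adjusted p = 0.0817 without replicate 1 and 0.112 without replicate 3), nor with a term for sex (adjusted p = 0.235). Without miR-144/451-null replicate 3, the library with 2 counts, double-null against miR-144/451-null passed (adjusted p = 0.0399). All of its 31-base words occur in other genes, so its reads cannot be told apart from those of its copies by exact words.

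The other Cwc22 copies were not members, because their summed counts were under 100. Summed over the copies, Gm13694 included, Nrf2-null libraries held 45, 56 and 49 counts, double-null libraries 40, 49 and 35, miR-144/451-null libraries 0 and 2, and wild type libraries 0 and 0. The copies averaged 3.66 ± 0.596 CPM in Nrf2-null and 3.07 ± 0.607 CPM in double-null (SD, n = 3 each), against 316 and 225 CPM of Cwc22 itself in the same groups. Adding them to Cwc22 left it past the threshold in the averaged comparison and in both single comparisons.

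Dync1i2, 4.46 Mb proximal, encodes an intermediate chain of cytoplasmic dynein, the motor that carries cargo toward the minus ends of microtubules. It was at 88.7, 90.5 and 99.2 CPM in Nrf2-null and 111, 106 and 99.6 CPM in double-null. It was at 74.2 and 72.2 CPM in miR-144/451-null and 68.7 and 63.4 CPM in wild type. The groups with and without the deletion did not overlap, with a gap much smaller than that of Cwc22. The averaged difference was 1.42-fold (log2 0.51 ± 0.09 SE, adjusted p = 0.0256, edgeR), and neither single comparison passed. The averaged call was lost with a term for sex (adjusted p = 0.148) and in 6 of the 10 fits that left out a library. The log2 difference itself was 0.47 with that term and 0.48 to 0.56 over the 10 fits. The adjusted p was 0.0942 without wild type replicate 1, 0.142 without wild type replicate 3 and 0.12 without miR-144/451-null replicate 3. It was 0.0611 without Nrf2-null replicate 1, 0.0655 without Nrf2-null replicate 2 and 0.0545 without double-null replicate 1.

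Nup35, 4.94 Mb distal, was at 22.6, 20.6 and 19.8 CPM in Nrf2-null and 19.4, 15.7 and 20.03 CPM in double-null. It was at 27.1 and 26.3 CPM in miR-144/451-null and 31.3 and 37.5 CPM in wild type. No library with the deletion reached the level of one without it, and the averaged difference was -0.63 ± 0.11 on the log2 scale (SE; adjusted p = 0.0403, edgeR). The call held in 1 of the 10 fits that left out a library, the one without miR-144/451-null replicate 1, and was lost without any of the other 9. The adjusted p over these fits ranged from 0.0448 to 0.17. With a term for sex it was 0.211. The log2 difference was -0.56 with that term and -0.67 to -0.56 over the 10 fits.

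**Figure D2:**
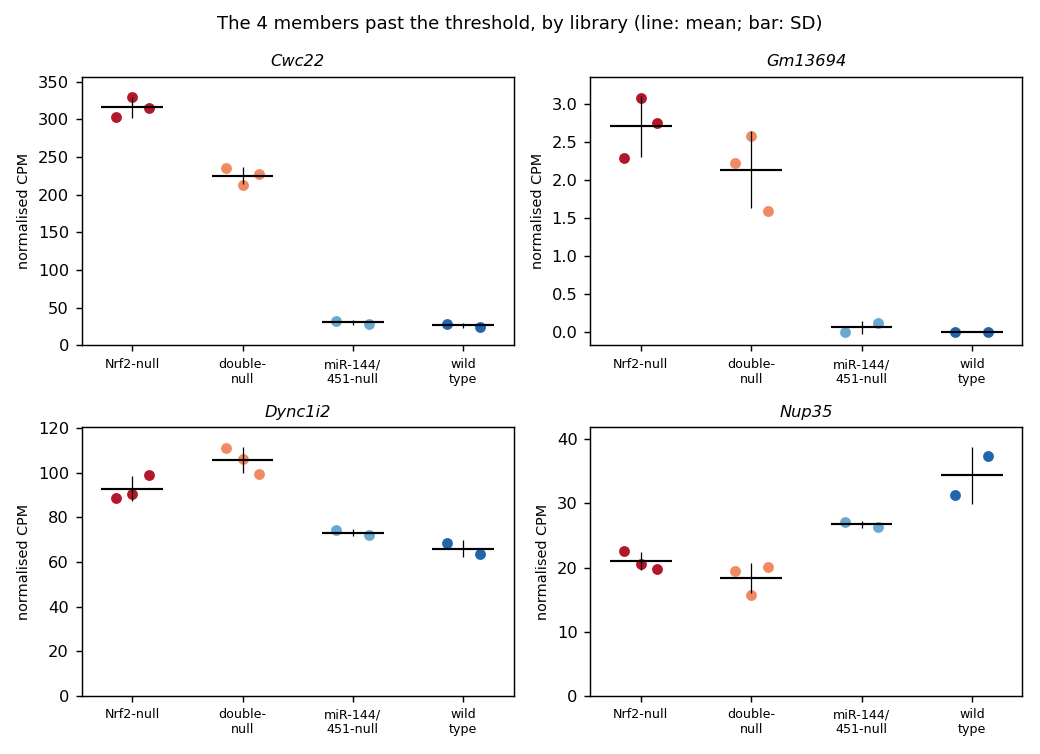
Normalised CPM of Cwc22, Gm13694, Dync1i2 and Nup35 in each library of Nrf2-null, double-null, miR-144/451-null and wild type, with the group mean (line) and SD (bar). In each panel the 6 libraries with the deletion do not overlap the 4 without it.

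The copy of Nup35 moved the other way. Gm4353 was at 10.9, 14.7 and 12.8 CPM in Nrf2-null, 2.31, 1.67 and 3.10 CPM in double-null, 0.657 and 0.587 CPM in miR-144/451-null, and 0.546 and 1.14 CPM in wild type. It was higher with the deletion, by 2.93 ± 0.30 on the log2 scale (SE; adjusted p = 0.00115, edgeR). It passed in Nrf2-null against wild type (log2 3.94, adjusted p = 0.00183, edgeR) and not in double-null against miR-144/451-null (log2 1.91, adjusted p = 0.191, edgeR). The difference between these comparisons did not pass (adjusted p = 0.929). When Nup35 and Gm4353 were summed, an alternative chosen after seeing the data, the levels were 33.5, 35.3 and 32.6 CPM in Nrf2-null and 21.7, 17.3 and 23.1 CPM in double-null. The sums were 27.8 and 26.9 CPM in miR-144/451-null and 31.8 and 38.6 CPM in wild type. The Nrf2-null sums fell within the wild type range, while the double-null sums all lay below those of miR-144/451-null. Neither single comparison of the sum passed. The averaged difference of the sum was -0.23 with an adjusted p of 0.3 (edgeR), so the Nup35 call did not hold for the sum.

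**Figure D3:**
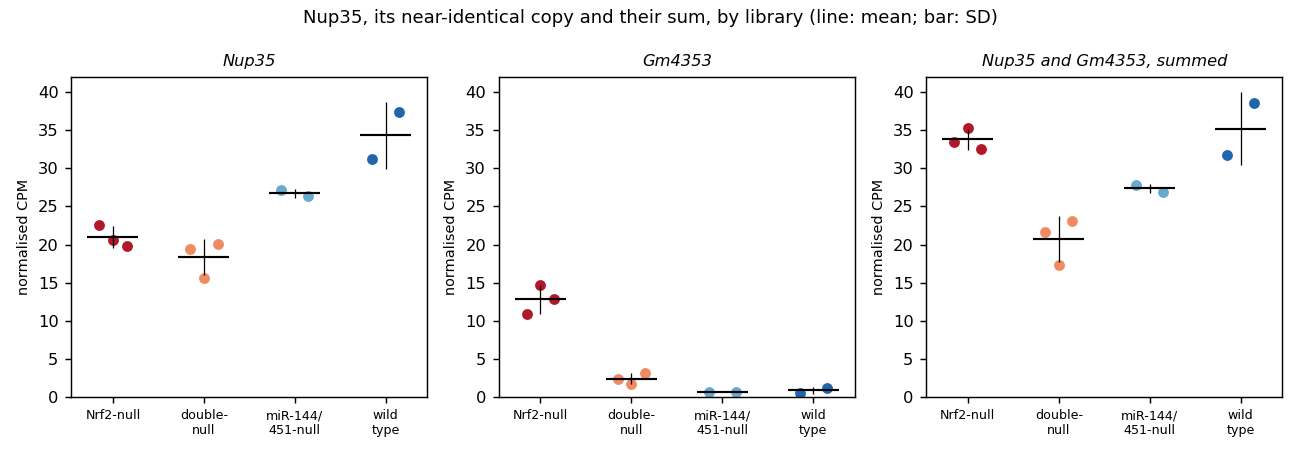
Normalised CPM of Nup35, of its copy Gm4353 on chromosome 7 and of their sum in each library, with the group mean (line) and SD (bar). Gm4353 was at 10.9 to 14.7 CPM in Nrf2-null and at most 3.10 CPM elsewhere, and the Nrf2-null sums lie within the wild type range.

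A count of members whose 6 values with the deletion do not overlap the 4 without it gave 7 of 120 (5.83%), against 331 of 14110 genes (2.35%) and 28 of 916 genes on the rest of chromosome 2 (3.06%). Besides the 4 above, these were Cerkl, with all deletion libraries above the others, and Timm10 and Selenoh, with all of them below. None of these 3 passed the test. Gm13694 is also among the 7, and it met the count minimum and the filter on low counts only through the libraries with the deletion. Its lack of overlap was therefore close to fixed in advance. The shares were not recounted without such genes, which include Gm13698 on the rest of chromosome 2. Cerkl, a ceramide kinase-like gene 3.66 Mb distal, was at 2.96, 2.18 and 4.51 CPM in Nrf2-null and 3.35, 2.96 and 2.02 CPM in double-null. It was at 1.75 and 1.58 CPM in miR-144/451-null and 1.40 and 1.14 CPM in wild type (averaged log2 1.03, adjusted p = 0.135, edgeR). Of its 31-base words, 19.8% also belong to Itga4, so its counts are uncertain. Selenoh, a nuclear selenoprotein, averaged 8.52 ± 1.14 CPM in Nrf2-null, 9.76 ± 2.31 in double-null, 15.02 ± 3.49 in miR-144/451-null and 13.9 ± 1.99 in wild type (SD). Its averaged log2 difference was -0.67 (adjusted p = 0.123, edgeR). Timm10, a chaperone of mitochondrial protein import, was at 4.44 to 5.02 CPM with the deletion and 5.47 to 6.75 CPM without it (log2 -0.36, adjusted p = 0.274, edgeR).

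The 12 members nearest to Nfe2l2 included none that passed in edgeR. The averaged log2 difference of Nfe2l2 itself was -0.44 (adjusted p = 0.0918, edgeR), and a count over the whole gene does not show the deleted part. Hnrnpa3 encodes an RNA-binding protein, and its lower coordinate lies 0.0163 Mb proximal to that of Nfe2l2. Hnrnpa3 was at 105.7, 129.4 and 151.6 CPM in Nrf2-null and 107.2, 84.7 and 118.3 CPM in double-null. It was at 146.4 and 100.7 CPM in miR-144/451-null and 136.2 and 121 CPM in wild type. The groups overlapped and the averaged log2 difference was -0.13 ± 0.14 (SE, adjusted p = 0.665, edgeR). Agps, which encodes the peroxisomal enzyme that makes the ether bond of plasmalogens, was at 43.5, 46.4 and 48.3 CPM in Nrf2-null and 87.8, 85.3 and 94.5 CPM in double-null. It was at 62.0 and 61.9 CPM in miR-144/451-null and 39.3 and 34.8 CPM in wild type. Within each status of the microRNA cluster the deletion libraries lay above the others, and across it they overlapped (averaged log2 0.42 ± 0.09 SE, adjusted p = 0.0672, edgeR). DESeq2 called Agps in the averaged comparison (log2 0.44, adjusted p = 0.00875), where it called 4.31% of the genes to which it gave an adjusted p. E030042O20Rik, a non-coding transcript, had the most negative averaged log2 difference of the 12 at -1.60 (adjusted p = 0.148, edgeR), from 1 to 11 counts a library with the deletion and 11 to 30 without it. The other 9, Ttc30b, Rbm45, Mtx2, Prkra, Plekha3, Ttn, Lnpk, Ccdc141 and Sestd1, had log2 differences of -0.38 to 0.46 and adjusted p of 0.234 to 0.994.

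**Figure D4:**
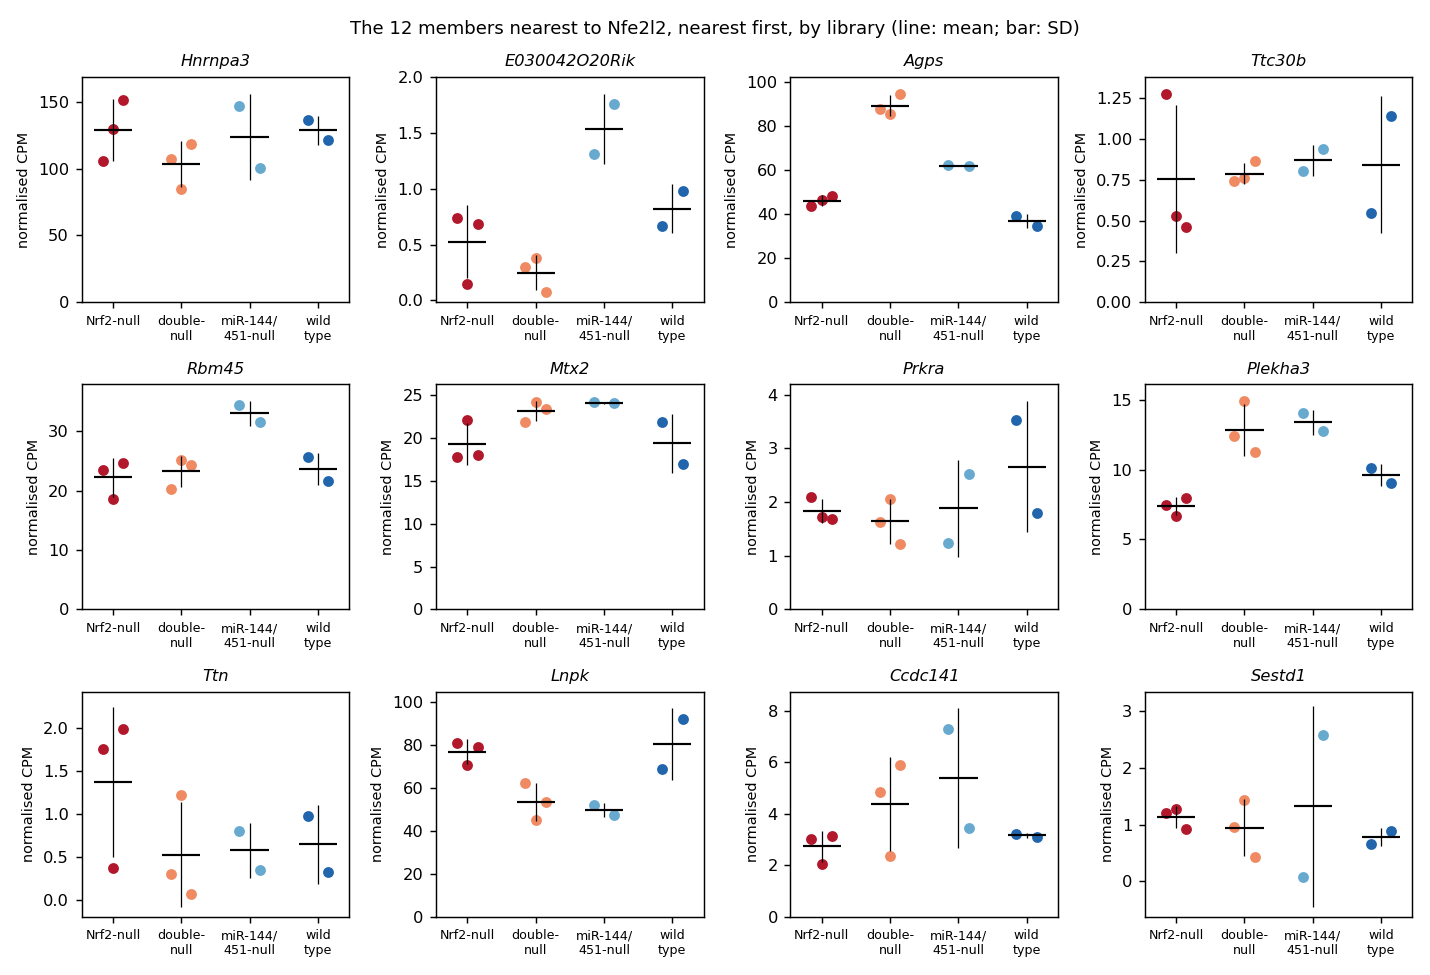
Normalised CPM in each library of the 12 members nearest to Nfe2l2, nearest first, with the group mean (line) and SD (bar). Agps was highest in double-null and lowest in wild type, and none of the 12 passed the threshold for the Nrf2 deletion in edgeR.

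By distance, 1 of the nearest 30 members passed, 3 of the second 30, and 0 of both the third and the farthest 30 (3.33%, 10%, 0% and 0%, against 0.588% of all genes), with 1 to 3 genes behind each share above 0. These groups of 30 end at 4.16, 8.66, 14.75 and 16.42 Mb from the Nfe2l2 start. At an unadjusted p under 0.05 the counts were 12, 6, 5 and 2, which is 40%, 20%, 16.7% and 6.67% against 18.9% of all genes. DESeq2 called 9 members over all distances (7.5%), against 4.31% of the genes to which it gave an adjusted p. On the proximal side 1 of 54 members passed (1.85%), and on the distal side 3 of 66 (4.55%), against the same 0.588% in edgeR. Without Gm13694 each count that holds it, in the second 30 and on the distal side, is 2. The farthest member, Phf21a at 16.42 Mb, had a log2 difference of -0.02, and the next gene outside, Pkp4 at 16.51 Mb on the proximal side, -0.94. Neither passed (adjusted p = 0.96 and 0.143). E030042O20Rik was just inside the count minimum with 103 counts, and Rapgef4os3 just outside it with 95 (log2 0.10, adjusted p = 0.918). Beyond the span, the nearest called genes of chromosome 2 were Arl5a at 23.28 Mb and Nmi at 23.73 Mb, both proximal. Arl5a was lower by 1.06 and Nmi by 1.38 on the log2 scale with the deletion (adjusted p = 0.00413 and 0.0222, edgeR).

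The comparisons of Nrf2-null with wild type and of double-null with miR-144/451-null gave 2 and 1 called members (1.67% and 0.833%), against 0.191% and 0.0638% of all genes. Gm13694 is 1 of the 2. DESeq2 called 4 and 3 members (3.33% and 2.5%), against 1.07% and 1.33% of the genes to which it gave an adjusted p. With no adjustment, 17 and 20 members had p under 0.05 (14.2% and 16.7%), against 12.1% and 10.7% of all genes. Cwc22 passed in both, and over all genes 4 did so in the same direction (0.0283%). The log2 differences had the same sign in both comparisons in 79 members (65.8%) and in 64.5% of all genes. Across the 120 members their Pearson correlation was 0.75, where the points share libraries. Without Cwc22 and Gm13694 it was 0.37, and over all genes it was also 0.37. Genes are not independent replicates. No member had an adjusted p under 0.05 for the difference between the 2 comparisons, against 0.0638% of all genes. At an unadjusted p under 0.05 there were 6 (5% against 4.46%): Cwc22, Calcrl, Madd, Pdk1, Cd302 and Med19. DESeq2 also called 0 members, against 0.144% of genes.

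**Figure D5:**
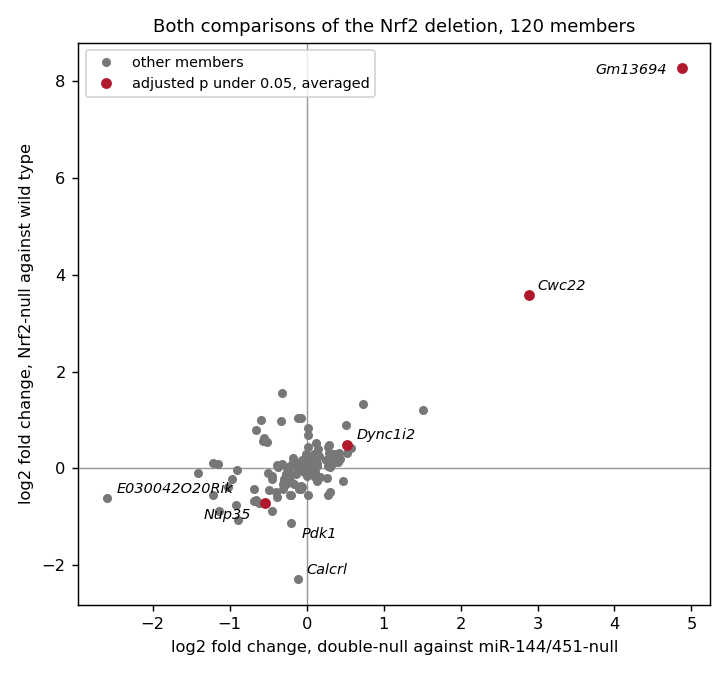
Log2 fold change of each of the 120 members in Nrf2-null against wild type (vertical axis) and in double-null against miR-144/451-null (horizontal axis). Cwc22 and Gm13694 stand alone at the upper right, and Calcrl and Pdk1 lie near 0 on the horizontal axis and below 0 on the vertical one.

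Calcrl and Pdk1 are given by library because their differences in the 2 comparisons were unlike in size. Calcrl, a receptor of adrenomedullin and related peptides, was at 3.16, 6.32 and 2.83 CPM in Nrf2-null and 13.3 and 26.8 CPM in wild type (log2 -2.29 ± 0.45 SE, adjusted p = 0.122, edgeR). It was at 16.4, 38.7 and 25.6 CPM in double-null and 30.9 and 27.3 CPM in miR-144/451-null (log2 -0.12). Pdk1, a kinase that restrains pyruvate dehydrogenase, was at 15.5, 17.8 and 11.1 CPM in Nrf2-null and 39.4 and 25.5 CPM in wild type (log2 -1.13 ± 0.22 SE, adjusted p = 0.0929, edgeR). In double-null it was at 36.9, 36.2 and 36.0 CPM, against 40.9 and 42.8 CPM in miR-144/451-null (log2 -0.20). Nrf2-null and wild type did not overlap for either gene, and both differences missed the threshold. DESeq2 called both in Nrf2-null against wild type (adjusted p = 1.90e-05 for Calcrl and 0.00168 for Pdk1). That comparison sets male libraries against female ones, and with a term for sex neither gene passed in edgeR. The difference between the 2 comparisons did not pass for Calcrl (adjusted p = 0.998 in edgeR and 0.0885 in DESeq2). It did not pass for Pdk1 either (0.999 in edgeR and 0.825 in DESeq2).

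Role lists chosen from knowledge of the region put these values beside their neighbours. Each called count here is a single gene, and 0.588% of all genes passed. Of 14 members in RNA processing and translation, Cwc22 alone passed, with a list median of -0.09. Ola1, an ATPase acting in translation, and Clp1, an RNA kinase of 3′ end processing, had averaged log2 differences of -0.29 and -0.32 (adjusted p = 0.171 and 0.156). Of 10 members of chromosome, chromatin and nuclear pore, Nup35 alone passed, with a median of -0.02, and Cdca7, a chromatin factor of dividing cells, was at -0.66 (adjusted p = 0.158). Of 11 members of adhesion and cytoskeleton, Dync1i2 alone passed (median 0.04), while Itga4, the alpha 4 integrin by which erythroblasts bind macrophages, was at 0.05 (adjusted p = 0.836). None of the 4 transcription factors passed. Atf2 was at 0.31 (adjusted p = 0.184), Sp3 at 0.20 (0.403), Nr1h3 at 0.33 (0.641), and Spi1, the myeloid and B cell factor PU.1, at 0.03 (0.96).

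None of the 7 mitochondrial members passed (median -0.26), nor of the 6 lipid and peroxisomal members (median 0.42), the 4 members of protein folding (median -0.03), the 4 transporters (median 0.27) or the 7 signalling members (median 0.04). Of the 13 genes listed for the Hoxd cluster and its flank, only Lnpk and Mtx2 at its edge were members, and neither passed. None of the 12 immune and myeloid members passed (median -0.10). Dpp4, a surface peptidase of lymphocytes, had an averaged log2 difference of -0.88 (adjusted p = 0.156). The summed macrophage and B cell markers varied between libraries over the ranges given above, and their part in these values was not tested. In bulk samples, fewer cells of a type and less RNA per cell cannot be told apart.

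Per length, the most abundant members were genes 9.06 to 9.26 Mb distal to Nfe2l2. Ypel4, a small conserved zinc-binding protein gene, was at 314 to 445 FPKM over the 10 libraries. The amino acid transporter gene Slc43a1 was at 128 to 214 FPKM, and Slc43a3, a purine nucleobase transporter gene, at 77.6 to 174 FPKM. The median member was at 5.46 FPKM averaged over the libraries. Cwc22 was at 42.3 to 46.4 FPKM in Nrf2-null and 29.9 to 33.3 FPKM in double-null, against 4.90 and 5.03 FPKM in miR-144/451-null and 3.29 and 4.71 FPKM in wild type. Ypel4, Slc43a1 and Slc43a3 had averaged log2 differences of 0.30, 0.27 and 0.38 with the deletion, and none passed (adjusted p = 0.281, 0.267 and 0.176, edgeR).

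Loss of the miR-144/451 cluster, which lies on another chromosome, gave another readout of the same genes. Of the 120 members, 34 passed (28.3%), 16 higher and 18 lower, close to the 29.2% of all genes tested (15% higher and 14.2% lower). Gorasp2, which encodes a Golgi stacking protein, was at 46.9, 44.4 and 46.8 CPM in double-null and 43.0 and 42.1 CPM in miR-144/451-null. It was at 16.6, 19.6 and 16.5 CPM in Nrf2-null and 20.3 and 17.4 CPM in wild type, 2.43-fold higher without the cluster (log2 1.28 ± 0.10 SE, adjusted p = 2.14e-05, edgeR). Nckap1, a subunit of the WAVE complex that drives actin branching, was higher by 1.29, Agps by 0.85 and Pdk1 by 0.83 on the log2 scale. Sp3, a zinc-finger transcription factor, was at 215.4, 172.0 and 198.1 CPM in double-null and 197.6 and 167.5 CPM in miR-144/451-null, against 355.0, 324.3 and 469.6 CPM in Nrf2-null and 307.6 and 313.2 CPM in wild type. It was lower by 0.87 on the log2 scale (adjusted p = 0.000541, edgeR), as were Ckap5, a microtubule polymerase, by 1.02 and Slc43a3 by 0.84. Cwc22 did not pass in this comparison (log2 -0.14 ± 0.10 SE, adjusted p = 0.294, edgeR).

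The core of the antioxidant response element, TGACNNNGC on either strand, was searched in RefSeq promoters (250 bases before to 50 after the transcription start, GRCm38.p6). It was found in 15 of the 98 members with a promoter entry (15.3%) and in 3781 of all 27025 genes with an entry (14%). A gene with several entries was counted once. Cwc22 and Dync1i2, the called members with an entry, were not among the 15, which says only that these letters were not in these windows. Hnrnpa3, Clp1, Sp3, Mtx2 and Slc43a1 were among them, and none of these passed for the Nrf2 deletion.

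The Nrf2 deletion and whatever else the Nrf2-null and double-null mice share on chromosome 2 coincide in these 6 libraries and cannot be told apart.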

How the data were processed

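The authors deposited raw counts per Ensembl gene for 10 libraries and FPKM values per library. Count, library total and deposited FPKM implied the same length of a gene in each library, within 0.1% in 100% of 196970 values. That length came from these same values and was not compared with an annotation. Build mm9 and the tools HISAT2 2.1.0, TopHat2, Bowtie2 2.2.3 and CASAVA are listed, with no roles, in the submitters' processing notes. No source used here gives the counting tool, its annotation or its use of strand, so overlapping and antisense genes were not told apart. Gene starts were taken from GENCODE M21, which describes a later build, by Ensembl identifier (99.6% matched), and distances in Mb are given in place of coordinates.

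Counts entered 1 fit of all 10 libraries in R 4.3.3 with edgeR 4.0.16: filterByExpr (14110 of 53465 genes), TMM factors, 1 coefficient per genotype, the robust quasi-likelihood test and 6 residual degrees of freedom. A call is an adjusted p under 0.05. The steps were run on simulated counts with changes set between libraries with and without the deletion, and the outcome is not given here. The simulation had no sex difference and no changed gene near 0 in a group, so it does not bear on those cases. Replicates of a group differed by more than sampling noise (chi-square per degree of freedom 17.4 to 30.5), so none was merged. Folds against groups at 0 use a floor of 3 counts a library. Shared sequence is the share of 31-base words found in another gene's transcripts.

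The members and lists were chosen with earlier results of these data known. Named members are the 12 nearest, those called or not overlapping, and up to 3 of each role list with the smallest p. Itga4, Spi1, Nckap1, Ckap5, Madd, Cd302, Med19 and Phf21a were named outside this rule, after their values were seen. Alternatives changed the scaling, filter, tool, sex term, block, libraries and number of neighbours, and used DESeq2 1.42.0.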

Additional observations from a re-analysis of the deposited data

Results flagged for a closer look

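Outside the members, 685 genes of the same span were scanned for counts in each of the 6 libraries with the Nrf2 deletion and in none of the 4 without it. This pattern held for 2 genes, both copies of Cwc22 that were under the count minimum, and the opposite pattern held for 0. Gm13698 had 54 counts in all, with 7, 12 and 8 in Nrf2-null, 9, 10 and 8 in double-null, and 0 in each miR-144/451-null and wild type library. Gm13696 had 22 counts in all, with 4, 3 and 5 in Nrf2-null, 1, 4 and 5 in double-null, and 0 in each miR-144/451-null and wild type library. Both were picked for this pattern, so their counts are a description with no test. Gm13698 passed the filter on low counts only through the libraries with the deletion, so its call in the averaged comparison supports nothing. Gm13696 was removed by the filter. Groups of 2 or 3 libraries are too small for a test of single outlying libraries.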

How the results depend on the processing

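Cwc22 passed for the Nrf2 deletion in the averaged comparison and in both single comparisons in each of the 10 fits that left out a library and under each alternative that gave it a value, with averaged log2 differences of 3.07 to 3.32. Of 4209 single-gene values under alternatives, 4133 kept their side of the threshold, 38 no longer passed, 38 newly passed and 0 called values changed sign. The cause was not tested for any of them.

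For the averaged comparison the count of 4 called members became 9 with the DESeq2 Wald test, 18 with no low count filter and 2 with a term for sex. It became 2 with copies summed, 7 among the nearest 240 genes, and 2 to 3 when a Nrf2-null or double-null library was left out. Fits without a wild type or miR-144/451-null library leave 1 library in that group, and their counts of calls are not given. The DESeq2 calls added Agps, Calcrl, Dpp4, Pdk1 and Selenoh. The same settings called 566 (DESeq2), 1416 (no filter), 30 (sex term) and 76 (copies summed) of all genes, against 83. Leaving out a Nrf2-null or double-null library called 38 to 106 of all genes. For Nrf2-null against wild type the count of 2 became 4 with DESeq2, 5 with no filter, 1 with the sex term and 1 with copies summed. It became 4 among 240 genes and 1 without genes at 2 counts or fewer in every library of one side. It stayed 2 when a Nrf2-null or double-null library was left out. Over all genes 141 (DESeq2), 716 (no filter), 12 (sex term) and 25 (copies summed) were called, against 27. Leaving out the genes at 2 counts or fewer gave 26, and leaving out a Nrf2-null or double-null library 17 to 31. For double-null against miR-144/451-null the count of 1 became 3 with DESeq2 and 7 with no filter, while all genes called became 175 and 743, against 9. Without a Nrf2-null or double-null library the count stayed 1, with 4 to 17 of all genes called. Members called in both became 2 with DESeq2 and 2 with no filter, and stayed 1 without a Nrf2-null or double-null library. The matching counts over all genes were not made. With no filter the interaction called 1 member, Calcrl, and 232 of all genes, against 0 members and 9 genes in the main fit. For cluster loss the count of 34 became 17 among the nearest 60 genes and 76 among 240, with the same 4114 of all genes called. Without a Nrf2-null or double-null library it was 32 to 37, with 3347 to 4177 of all genes called.

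Leaving out scaling factors moved the median of all genes to -0.18 in the averaged comparison (members -0.19), to -0.12 in Nrf2-null against wild type (members -0.10), to -0.24 in double-null against miR-144/451-null (members -0.29) and to -0.10 for their difference (members -0.16). Changes under that setting are relative to these shifts. The member median for cluster loss was -0.06 without miR-144/451-null replicate 3. With a replicate block the averaged comparison called 3 members, Calcrl, Cwc22 and Gm13694, and 43 of all genes. Same-numbered libraries did not deviate together (correlations -0.111 to 0.287), so the numbers are not read as pairs. Depth limits members near the count minimum, such as E030042O20Rik with a standard error of 0.49 on the log2 scale, where smaller differences were not detectable.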
